A study of Homo sapiens with 12 samples.

Results

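Glycolysis, the cytosolic route that splits glucose into pyruvate and yields ATP, was examined through the mRNAs of 10 of its enzymes in HEK293 cells depleted of 1 of 3 splicing factors. The 10 genes were chosen by symbol (HK2, GPI, PFKP, ALDOA, TPI1, PGK1, PGAM1, ENO1, PKM and LDHA) and mapped from the Ensembl identifiers of the count files. They are 10 of 60554 gene identifiers in the files, and all 10 passed the filter on low counts. All samples came from a human embryonic kidney line, given as HEK293 and, in the cell line field, as HEK293T, at 10 passages. Cells received ON-TARGETplus siRNA: a SMARTpool against RBM17, a SMARTpool against U2SURP, a SMARTpool against CHERP, or Non-targeting siRNA #3 as control, for which no SMARTpool is named. The 3 targets are proteins that associate with the U2 particle of the spliceosome, the part that pairs with the intron branch point. Each group had 3 RNA-seq libraries, 12 in all, made with a stranded mRNA kit, with 252505520 to 320986785 counted reads per library. Whether the 3 libraries of a group stem from separate cultures is not stated, and p-values here reflect the scatter of the libraries only, part or all of which may be technical.

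The enzymes fall into a preparatory stretch that spends ATP and a pay-off stretch that regains it. Hexokinase (HK2), glucose-6-phosphate isomerase (GPI), phosphofructokinase (PFKP) and aldolase (ALDOA) trap glucose, rearrange it and cleave it into triose phosphates. Triose-phosphate isomerase (TPI1), phosphoglycerate kinase (PGK1), phosphoglycerate mutase (PGAM1), enolase (ENO1) and pyruvate kinase (PKM) then lead to pyruvate, which lactate dehydrogenase (LDHA) reduces to lactate. In proliferating lines much of the pyruvate is known to become lactate even with oxygen present, and several of these genes are textbook targets of the hypoxia-inducible factor HIF-1 and of MYC.

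Promoter sequences of the members are shown for the letters ACGTG, the core of the hypoxia response element, and CACGTG, the E-box bound by MYC-type factors, because members moved together in 1 group. All 10 members matched the RefSeq promoter table (GRCh38.p14, 300 bases from 250 before to 50 after each start), with 18 windows. ACGTG, searched on both strands and lying inside every CACGTG, was present in 10 of these 18 windows (55.6%) and in at least 1 window of 7 members, and in 21.4% of all 35116 windows of the table. The windows of PGAM1, ENO1 and PKM held none, and the sequences printed below come only from members with matches. CACGTG was present in 7.26% of all windows and, among the members, in windows of HK2, ALDOA and LDHA only. GGGCGG, the core of a GC box, was present in 45.0% of all windows and in 12 of the 18 windows of the members. The first sequence is the 250 bases before the second listed start of HK2 (chr2:74834920-74835169, plus strand), which held CACGTG at 2 places. Below it are 25-base stretches of the window at the first listed start of LDHA (chr11:18394368-18394392, chr11:18394466-18394490 and chr11:18394480-18394504) and of the PGK1 window (chrX:78104036-78104060 and chrX:78104055-78104079), all on the plus strand. The window at the second listed start of LDHA held no ACGTG. The PGK1 window held a further match 28 bases past the start, which is not printed. Capitals mark each match, on either strand, and all are written 5′ to 3′. These are matches of letters and not evidence of binding.
HK2: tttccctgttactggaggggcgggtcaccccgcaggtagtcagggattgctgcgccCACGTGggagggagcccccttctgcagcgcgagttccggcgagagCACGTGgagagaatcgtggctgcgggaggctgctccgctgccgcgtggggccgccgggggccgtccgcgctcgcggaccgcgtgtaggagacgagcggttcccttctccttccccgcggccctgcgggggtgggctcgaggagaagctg
LDHA 1: actcccagcgCACGTGgagcagtct
LDHA 2: gcccgactcaCACGTGggttcccgc
LDHA 3: tgggttcccgCACGTccgccggccc
PGK1 1: ggcgtgccggACGTGacaaacggaa
PGK1 2: acggaagccgCACGTctcactagta

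Each siRNA lowered its own target (edgeR adjusted p = 1.37e-19 for RBM17, 7.05e-15 for U2SURP and 4.45e-17 for CHERP). RBM17 mRNA was at 26.0 to 27.0 CPM (reads of the gene per 1000000 counted, scaled for composition with TMM) in the RBM17 knockdown against 112.3 to 117.7 in control, U2SURP mRNA at 137.8 to 149.0 against 433.9 to 498.5, and CHERP mRNA at 17.2 to 18.8 against 60.1 to 62.1. For the cell type markers that follow, CPM is per library total without TMM scaling. Marker genes listed for HEK293 cells summed to 653.9 to 686.8 CPM in control libraries and 735.6 to 808.4 in the RBM17 knockdown, while the 10 fibroblast markers stayed at or under 24.1 CPM and the 10 blood markers at or under 5.51 CPM in every library. The 10 epithelial markers summed to 91.0 to 94.5 CPM in control and 111.6 to 125.2 in the 3 knockdowns, and the part of these lists in the results was not tested. Of 10 defining markers, HBB was at 0 in all 12 libraries, DCN, PTPRC, CD3E, KRT5, KRT14 and COL1A2 each stayed under 0.07 CPM, and COL1A1 (10.0 to 22.2 CPM), CDH1 (3.2 to 6.57) and EPCAM (1.46 to 2.95) were detected in every library. Reads from mitochondrial genes made up 7.877% to 8.697% of counts in control and 3.98% to 5.15% in the 3 knockdowns, and their part in the results was not tested. Library numbers in the labels run in blocks by group, and a batch of preparation and the siRNA cannot be told apart. In bulk RNA, fewer cells with a transcript and less of it per cell cannot be told apart.

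Compared per kilobase of exon, the members spanned a wide range in control cells. ENO1 stood at 198.4 ± 7.89 CPM per kb (SD, n = 3), TPI1 at 188.6 ± 12.3 and ALDOA at 181.2 ± 7.87. These were followed by LDHA (118.5 ± 6.13), PKM (100.7 ± 3.36), PGK1 (75.9 ± 3.46) and PGAM1 (50.9 ± 2.40). The lowest were GPI (25.6 ± 0.553), HK2 (16.7 ± 0.489) and PFKP (15.2 ± 0.406). Exon lengths are unions over annotated transcripts, and the order depends on them. GPI has the longest union of the members, 10.68 kb. Before scaling by length its control mean was 273.8 CPM, above the 130.8 CPM of PGAM1, whose union is 2.568 kb. ENO1 and TPI1, and TPI1 and ALDOA, differed by less than the sum of their SDs, and the other neighbours in this order differed by more. The order was the same in the RBM17 knockdown, from ENO1 at 394.6 ± 50.5 CPM per kb to PFKP at 19.0 ± 1.33. In the U2SURP knockdown TPI1 (216.0 ± 4.05) and ALDOA (204.4 ± 13.3) stood above ENO1 (189.5 ± 11.2). In the CHERP knockdown ALDOA (204.6 ± 10.7) and TPI1 (199.0 ± 1.72) stood above ENO1 (195.2 ± 8.37), PKM (110.5 ± 2.51) above LDHA (106.9 ± 12.7) and PFKP (13.3 ± 0.846) above HK2 (12.3 ± 1.17). Each pair that changed places in the CHERP knockdown differed by less than the sum of its SDs, as did ALDOA and ENO1 in the U2SURP knockdown, where TPI1 and ENO1 differed by more.

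All 10 enzymes were higher in the RBM17 knockdown than in control. Their summed level was 4774.2, 4722.6 and 5089.3 CPM in the control libraries and 7663.9, 8987.8 and 9527.9 CPM in the RBM17 knockdown. It was 4699.5, 5050.2 and 5207.5 CPM in the U2SURP knockdown and 4764.0, 5221.1 and 5170.6 CPM in the CHERP knockdown. Every RBM17 knockdown library lay above every library of the other groups, while those of the U2SURP and CHERP knockdowns overlapped control. Against control, all 10 members were called higher in the RBM17 knockdown (adjusted p under 0.05), beside 25.4% of the 29003 genes tested that were called higher and 29.3% called lower. All 10 also had no overlap between groups, beside 27% of genes tested with all RBM17 knockdown libraries higher. The members' median log2 fold change was 0.81 (range 0.32 to 0.99), and the median of all genes tested was -0.10. Because the members are abundant, the 3229 genes at or above the level of PFKP give a closer background: 54.7% of those were called higher and 23.3% lower, with a median of 0.18. No member reached a 2-fold change against control here, although ENO1, LDHA and TPI1 passed it under some alternatives (up to 1.10, 1.06 and 1.03 on the log2 scale, without RBM17 knockdown library 1).

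**Figure D1:**
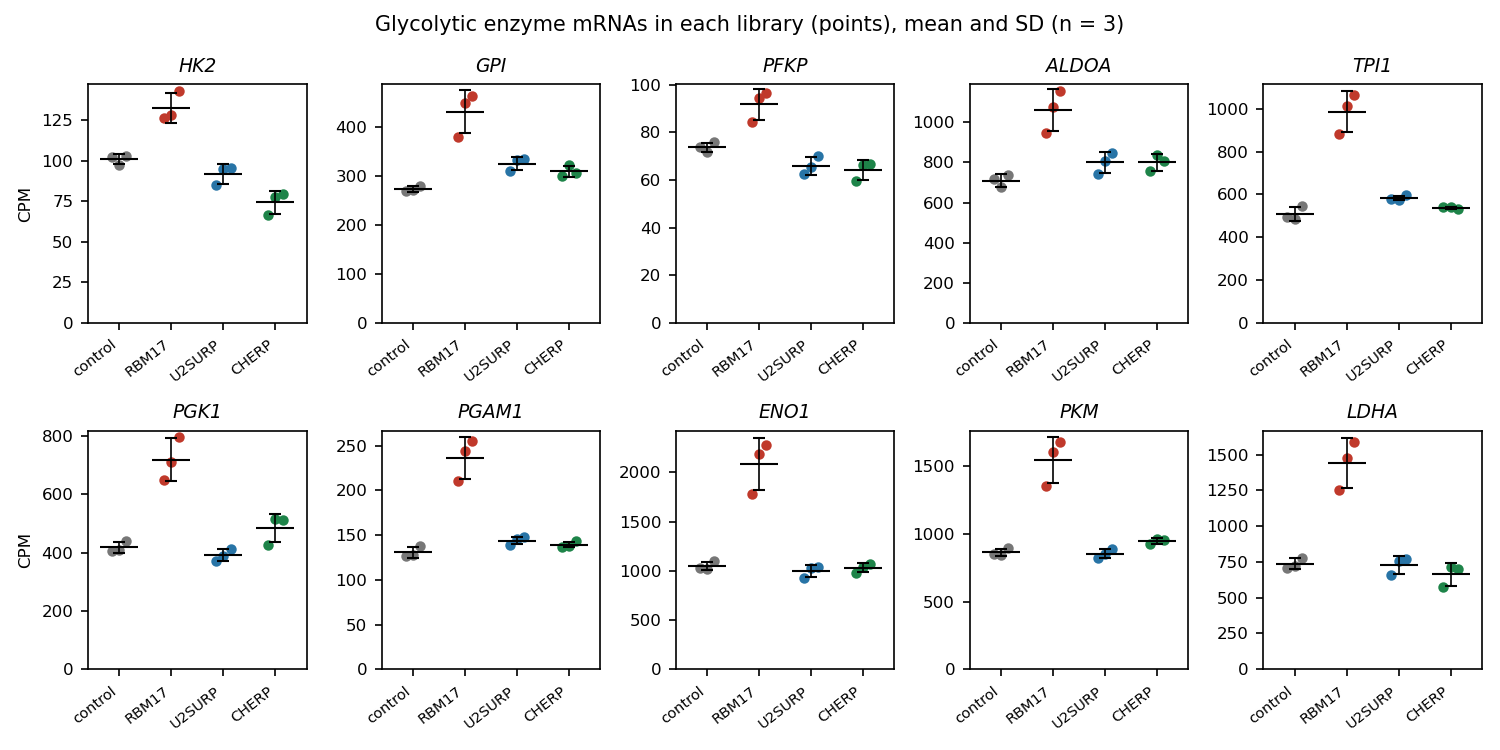
CPM (linear axes from 0) of the 10 enzymes in each of 12 libraries, with 1 panel per gene in pathway order; points are libraries, long bars the mean and whiskers the SD (n = 3). The RBM17 knockdown libraries lie above all others in every panel, and the CHERP knockdown libraries lie lowest for HK2.

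Among the preparatory enzymes, HK2, which phosphorylates glucose at the mitochondrial surface, measured 102.1, 97.6 and 103.2 CPM in control and 126.5, 128.1 and 143.2 in the RBM17 knockdown. The groups did not overlap, and the log2 fold change was 0.39 ± 0.065 (SE, adjusted p = 1.62e-05). GPI, which converts glucose-6-phosphate to fructose-6-phosphate, measured 268.8, 272.2 and 280.3 CPM in control and 381.3, 450.7 and 465.3 in the RBM17 knockdown. It rose by 0.66 ± 0.062 (adjusted p = 3.47e-09). PFKP, the platelet-type subunit of the committing kinase, measured 73.7, 71.8 and 75.8 CPM in control and 84.4, 94.4 and 96.5 in the RBM17 knockdown. Its log2 fold change of 0.32 ± 0.059 (adjusted p = 7.97e-05) was the smallest of the 10. ALDOA, which cleaves fructose-1,6-bisphosphate, rose from 717.9, 675.2 and 735.0 CPM to 948.1, 1074.3 and 1156.4, a log2 fold change of 0.58 ± 0.067 (adjusted p = 9.52e-08). The 4 preparatory enzymes had a median log2 fold change of 0.49 (0.32 to 0.66).

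The 6 listed enzymes after aldolase rose more, with a median of 0.90 (0.78 to 0.99), and their range did not meet that of the first 4. This gap depends on the split: TPI1, at 0.95, can also be counted in the preparatory stretch, and the ranges then meet. It also depends on the comparison. With the RBM17 knockdown set against the CHERP knockdown the ranges met, 0.40 to 0.83 for the first 4 and 0.57 to 1.12 for the later 6. Against the U2SURP knockdown they did not (0.40 to 0.53 and 0.72 to 1.06). TPI1, which interconverts the triose phosphates, rose from 495.7, 484.9 and 547.0 CPM in control to 879.7, 1014.3 and 1065.9 in the RBM17 knockdown, a log2 fold change of 0.95 ± 0.063 (adjusted p = 1.43e-11). PGK1, the first ATP-yielding enzyme, rose from 406.5, 408.7 and 440.6 CPM to 651.1, 711.1 and 796.5, by 0.78 ± 0.073 (adjusted p = 4.61e-09). PGAM1, which shifts the phosphate of phosphoglycerate, rose from 126.4, 128.0 and 137.8 CPM to 210.2, 243.7 and 255.1, by 0.85 ± 0.060 (adjusted p = 4.05e-11). For all 3 the lowest knockdown library was far above the highest control library. ENO1, which makes phosphoenolpyruvate, had the largest change of the 10: 1025.4, 1019.7 and 1094.5 CPM in control against 1779.2, 2186.2 and 2281.1, a log2 fold change of 0.99 ± 0.073 or 1.99-fold (adjusted p = 7.05e-11). PKM, which makes pyruvate and the second ATP, rose from 850.4, 842.5 and 895.8 CPM to 1353.1, 1605.0 and 1678.0, by 0.84 ± 0.065 (adjusted p = 1.63e-10). LDHA, which regenerates NAD+ by making lactate, rose from 707.2, 721.9 and 779.2 CPM to 1250.4, 1479.9 and 1590.1, by 0.97 ± 0.092 (adjusted p = 7.56e-08). RBM17 knockdown library 1 was the lowest of its group for all 10 members, and without it all 10 were still called higher. Among the 3229 genes of like abundance, ENO1, LDHA and TPI1 had larger log2 fold changes than 98.9%, 98.8% and 98.6% of genes, while HK2 and PFKP exceeded 69.3% and 62.5%.

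The U2SURP knockdown left most of the pathway near control. Against control 3 of 10 members were higher and 1 lower, beside 21.1% of genes tested called higher and 22.2% called lower. Among the 3229 genes of like abundance, 45.7% were called higher and 25.1% lower, both above the members' share. The members' median log2 fold change was -0.01 (range -0.16 to 0.25). GPI measured 310.0, 332.5 and 335.5 CPM, above all control libraries, and rose by 0.25 ± 0.062 (adjusted p = 0.00181). TPI1 at 579.0, 575.2 and 595.8 CPM was also above all control libraries and rose by 0.20 ± 0.062 (adjusted p = 0.0129). ALDOA at 744.3, 809.4 and 847.4 CPM rose by 0.17 ± 0.067 (adjusted p = 0.0382). PFKP at 62.6, 65.6 and 70.1 CPM was below all control libraries, with a log2 fold change of -0.16 ± 0.059 (adjusted p = 0.0349). GPI alone of these 4 was called in all 19 alternative analyses. PFKP lost its call without U2SURP knockdown library 1 or 2, or control library 1 or 3 (adjusted p 0.0669 to 0.0955), with RBM17 knockdown library 2 and control library 3 both left out (0.101), with DESeq2 (size factors 0.0918, Wald test 0.108) and with GC content and length offsets (-0.09, 0.223). The call was also lost for ALDOA without U2SURP knockdown library 2 or 3, CHERP knockdown library 3 or control library 1 or 2 (0.0677 to 0.188), and for TPI1 without U2SURP knockdown library 3 or control library 1 or 2 (0.0543 to 0.0769).

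The 6 members without a call in the U2SURP knockdown were HK2, PGK1, PGAM1, ENO1, PKM and LDHA. HK2 measured 85.0, 94.6 and 95.8 CPM, all below control, at a log2 fold change of -0.14 (95% interval -0.26 to -0.01, adjusted p = 0.0933). HK2 was called lower in 1 of 19 alternatives, without CHERP knockdown library 3 (adjusted p = 0.0414). PGAM1 measured 139.2, 145.1 and 147.5 CPM, all above control, at 0.14 (0.02 to 0.26, adjusted p = 0.065). PGAM1 was called higher in 6 of 19 alternatives, among them DESeq2 (size factors 0.0327, Wald test 0.0347) and only the 2 groups compared (0.0131). The other 4 overlapped control: PGK1 at -0.10 (-0.24 to 0.04), ENO1 at -0.07 (-0.21 to 0.07), PKM at -0.01 (-0.14 to 0.11) and LDHA at -0.02 (-0.19 to 0.16). In all, 4 members had every U2SURP knockdown library above control and 2 had every one below, beside 25.3% and 26.7% of genes tested.

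In the CHERP knockdown, the regulated kinases HK2 and PFKP were lower and GPI, ALDOA and PGK1 higher. Thus 3 of 10 members were higher and 2 lower, beside 22.8% of genes tested called higher and 24.6% lower, with a members' median of 0.09 (range -0.44 to 0.21). Among the 3229 genes of like abundance, 43.3% were called higher and 30.5% lower, both above the members' share. HK2 measured 66.3, 77.6 and 79.5 CPM against 97.6 to 103.2 in control, a clear gap, and had a log2 fold change of -0.44 ± 0.065 (adjusted p = 5.07e-06). PFKP measured 59.5, 66.5 and 66.6 CPM, below all control libraries, at -0.20 ± 0.059 (adjusted p = 0.00737). GPI at 300.3, 322.6 and 307.2 CPM rose by 0.18 ± 0.062 (adjusted p = 0.0194), and ALDOA at 756.5, 839.6 and 807.2 CPM rose by 0.18 ± 0.067 (adjusted p = 0.034). Both lay above all control libraries. PGK1 at 427.8, 514.6 and 511.5 CPM rose by 0.21 ± 0.073 (adjusted p = 0.0197), although its first library fell within the control range. HK2 was called lower in all 19 alternatives. The call was lost without CHERP knockdown library 2 or 3 or control library 1 or 2 for GPI (adjusted p 0.0564 to 0.0962), PGK1 (0.0733 to 0.166) and ALDOA (0.0597 to 0.149), for ALDOA also without U2SURP knockdown library 1 (0.064), and for PFKP without CHERP knockdown library 1 (0.057). With GC content and length offsets PGK1 stood at 0.12 (adjusted p = 0.156) and PFKP at -0.13 (adjusted p = 0.0696), both without a call.

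Among the other 5 members in the CHERP knockdown, PKM at 922.8, 963.8 and 954.7 CPM lay above all control libraries, at a log2 fold change of 0.13 (95% interval 0.01 to 0.26, adjusted p = 0.0925). PKM was called higher in 3 of 19 alternatives, among them GC content and length offsets (0.24, adjusted p = 0.00347). LDHA was the most variable, at 573.5, 717.7 and 700.3 CPM, and its change was -0.15 (-0.33 to 0.03, adjusted p = 0.197). LDHA was called lower in 1 of 19 alternatives, without the filter on low counts (adjusted p = 0.0363). TPI1 (538.6, 541.2 and 532.2 CPM), PGAM1 (137.0, 138.3 and 143.0 CPM) and ENO1 (981.7, 1039.3 and 1068.5 CPM) overlapped control, with changes of 0.08, 0.09 and -0.02. Counting libraries alone, 3 members lay wholly above and 2 wholly below control, beside 27% and 27.9% of genes tested.

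**Figure D2:**
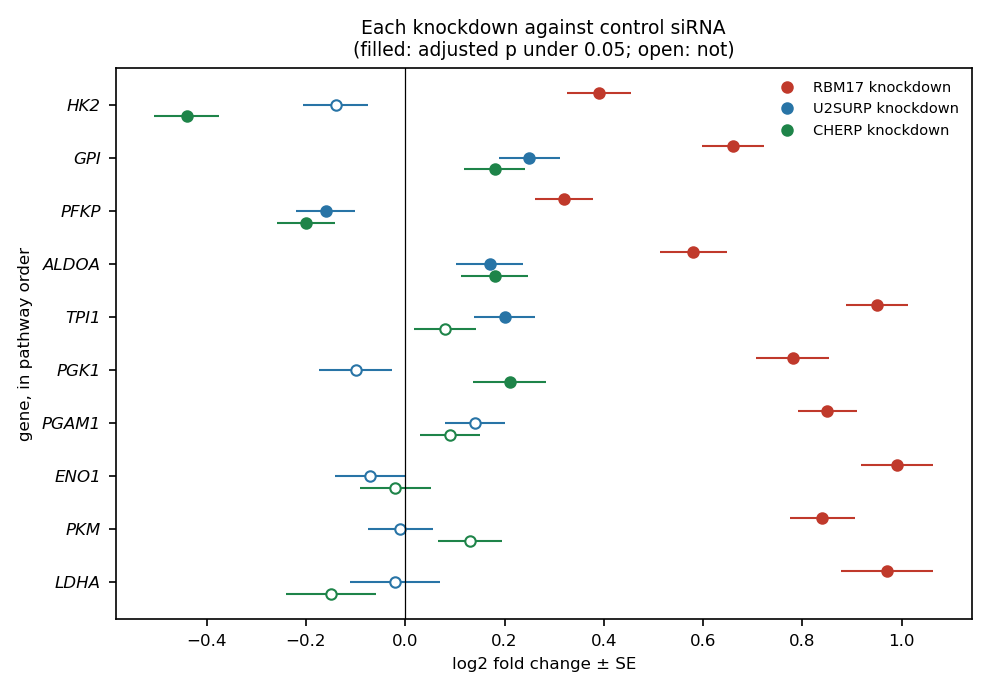
Log2 fold change ± SE of the 10 enzymes (vertical axis, pathway order) in each knockdown against the same 3 control libraries; filled points passed an adjusted p of 0.05. RBM17 knockdown values run from 0.32 to 0.99, larger from TPI1 downward, while the others lie between -0.44 and 0.25.

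These comparisons share the control libraries, so the knockdowns were also compared with each other. All 10 members were higher in the RBM17 than in the U2SURP knockdown, beside 23% of genes tested called higher and 21.5% lower, with a median log2 difference of 0.74 (0.40 to 1.06) and no overlap for any member (26.6% of genes tested). Among the 3229 genes of like abundance, 47.6% were called higher and 19.2% lower. All 10 members were likewise higher in the RBM17 than in the CHERP knockdown, beside 26.1% of genes tested called higher and 25.5% lower, with a median of 0.73 (0.40 to 1.12) and no overlap (28.1%). The genes of like abundance gave 52.3% higher and 18.6% lower in that comparison. ENO1 was 2.08-fold higher in the RBM17 than in the U2SURP knockdown (1.06 ± 0.073 on the log2 scale, adjusted p = 5.31e-11). LDHA was 2.17-fold higher in the RBM17 than in the CHERP knockdown (1.12 ± 0.092, adjusted p = 1.44e-08). The smallest differences were those of ALDOA, at 0.40 ± 0.067 in both comparisons (adjusted p = 2.51e-05 against U2SURP and 1.90e-05 against CHERP). The U2SURP and CHERP knockdowns differed in 2 members. HK2 was higher in the U2SURP knockdown by 0.30 ± 0.065 (adjusted p = 9.96e-04), and PGK1 was lower by -0.31 ± 0.073 (adjusted p = 0.00237), beside 15% of genes tested called higher and 12.9% lower. For genes of like abundance these shares were 25% and 14.9%. The other 8 members did not pass the test, with changes between -0.15 for PKM and 0.13 for LDHA. Of these, PKM was called lower in 4 of 19 alternatives and TPI1 higher in 1.

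GAPDH, the dehydrogenase that stands between TPI1 and PGK1, showed another pattern. It measured 1275.8, 1226.7 and 1371.1 CPM in control, 1521.8, 1770.2 and 1857.9 in the RBM17 knockdown, 1565.7, 1743.2 and 1790.8 in the U2SURP knockdown and 1625.1, 1736.7 and 1809.5 in the CHERP knockdown. All 3 knockdowns were above control and overlapped each other. Its log2 fold changes were 0.41 ± 0.070, 0.40 ± 0.070 and 0.42 ± 0.070 (adjusted p = 2.52e-05, 6.43e-05 and 2.80e-05). Although GAPDH acts after aldolase, its rise in the RBM17 knockdown lay within the range of the preparatory enzymes (0.32 to 0.66). The larger rise after aldolase thus holds for the listed members and not for every later step. The RBM17 knockdown differed from the U2SURP knockdown by 0.01 (95% interval -0.12 to 0.15) and from the CHERP knockdown by -0.01 (-0.14 to 0.13), 2 contrasts in which every listed member differed by at least 0.40. Neither passed the test (adjusted p = 0.891 and 0.952), and the sign of both changed under some alternatives, left-out libraries among them.

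Most steps have further isozymes. Of 24 other glycolytic enzymes and isozymes on a list, 22 were tested; 11 were higher and 8 lower in the RBM17 knockdown (median 0.14), 6 and 5 in the U2SURP knockdown (0.06) and 8 and 4 in the CHERP knockdown (0.04). Over all genes tested, 25.4%, 21.1% and 22.8% were called higher in these knockdowns and 29.3%, 22.2% and 24.6% lower. The counts of every later list against control stand beside the same shares. HK1, the housekeeping hexokinase, rose by 0.57 ± 0.050 in the RBM17 knockdown (adjusted p = 1.07e-09), from 109.5 to 118.6 CPM in control to 162.7 to 174.3 CPM, and stood at 0.04 and 0.00 in the others. PFKL, the liver-type subunit, rose by 0.38 in the RBM17 knockdown (adjusted p = 1.35e-05), 0.38 in the U2SURP knockdown (adjusted p = 3.10e-05) and 0.17 in the CHERP knockdown (adjusted p = 0.0253, lost in 6 of 19 alternatives). PFKM, the muscle type, passed the test in none of the 3 (0.05, 0.08 and -0.02). LDHB, which favours the return of lactate to pyruvate, rose by 0.57, 0.39 and 0.33 in the RBM17, U2SURP and CHERP knockdowns (adjusted p = 7.52e-08, 2.93e-05 and 1.41e-04). LDHC, a further lactate dehydrogenase, averaged 3.26 CPM in control and 4.58, 6.37 and 8.14 CPM in the RBM17, U2SURP and CHERP knockdowns. Every knockdown library of LDHC lay above control. ENO2, the neuronal enolase, was lower in all 3 (-0.35, -0.52 and -0.18, adjusted p = 9.99e-05, 8.86e-07 and 0.0315, the last lost in 5 of 19 alternatives). ENO3, the muscle enolase, was lower in the RBM17 (-1.18 ± 0.079, adjusted p = 1.89e-11) and U2SURP knockdowns (-0.55 ± 0.078, adjusted p = 3.44e-06) and higher in the CHERP knockdown (0.42 ± 0.077, adjusted p = 7.52e-05). ALDOC, the brain aldolase at 2.97 CPM in control, rose by 0.50 in the RBM17 knockdown and changed by -0.44 and -0.38 in the others (adjusted p = 6.74e-04, 0.0037 and 0.00886, the last lost without control library 1 at 0.0549).

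The mix of isozymes at each step was read as the share of its reads per kilobase of exon. LDHA made up 30.7%, 31.0% and 29.3% of these lactate dehydrogenase reads in control and 35.0%, 36.3% and 37.8% in the RBM17 knockdown. It made up 23.6%, 24.5% and 25.9% in the U2SURP knockdown and 21.7%, 25% and 23.9% in the CHERP knockdown. Thus the LDHA share lay wholly above control in 1 knockdown and wholly below it in the other two, with mean differences of 6.05, -5.70 and -6.78 percentage points. PFKP was 40.0% ± 0.678 (SD, n = 3) of the phosphofructokinase reads in control, 41.7% ± 0.171 in the RBM17, 33.8% ± 0.196 in the U2SURP and 35.5% ± 0.555 in the CHERP knockdown. The size of a share depends on the exon lengths used. Without division by length the control means were 47.6% for LDHA and 28.5% for PFKP, and their differences from control kept their signs. HK2 was 47.8% ± 0.376 of the hexokinase reads in control, 44.7% ± 1.55 in the RBM17, 44.7% ± 1.53 in the U2SURP and 40.2% ± 3.19 in the CHERP knockdown, with no library of any knockdown reaching the control range. ENO1 held 95.7% ± 0.294 of the enolase reads in control, 98.4% ± 0.309 in the RBM17, 96.9% ± 0.277 in the U2SURP and 95.8% ± 0.168 in the CHERP knockdown. ALDOA held 99.4% to 99.6% of the aldolase reads in the group means. Of the 15 shares compared with control, 13 did not overlap, each with the smallest p that 3 against 3 libraries allow (exact permutation test, two-sided, p = 0.1, adjusted 0.115), so this design could not pass 0.05. The exceptions were ALDOA in the RBM17 knockdown (exact p = 0.2) and ENO1 in the CHERP knockdown (exact p = 0.9).

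**Figure D3:**
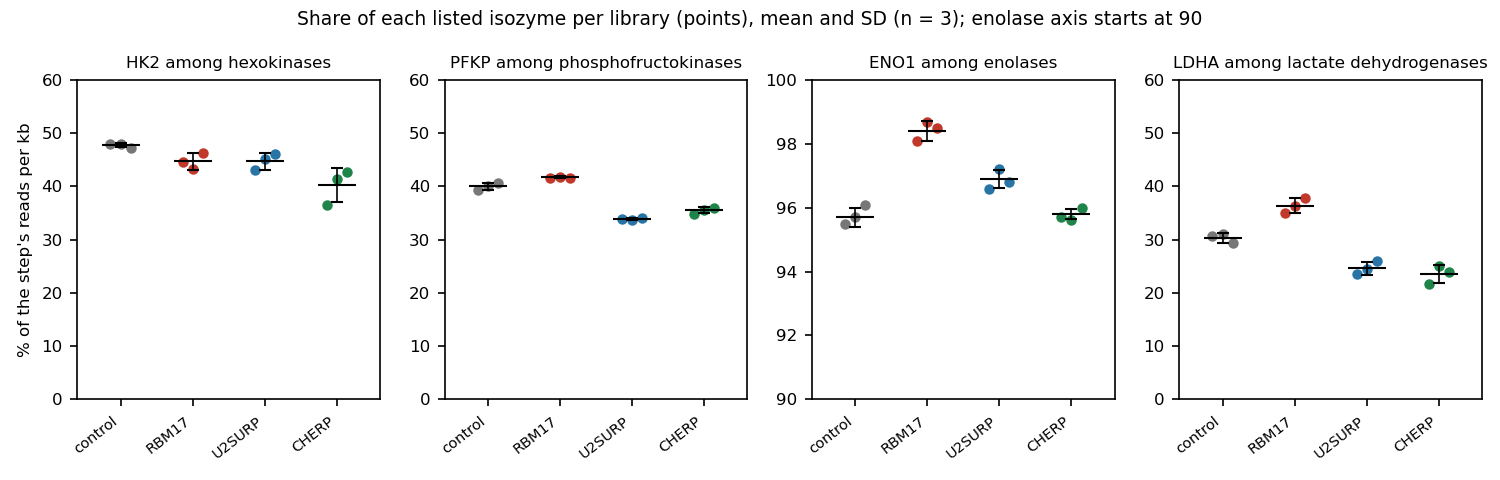
Share of the step's reads per kilobase (percent) held by HK2, PFKP, ENO1 and LDHA in each library (points), with mean and SD (n = 3); the enolase axis starts at 90. The LDHA share averages 30.3% in control, 36.4% in the RBM17 knockdown, 24.6% in the U2SURP knockdown and 23.6% in the CHERP knockdown.

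Some reads could be shared between a member and its near copies. TPI1 pseudogenes carried 1.98% to 2.36% of the TPI1 count, LDHA pseudogenes 0.976% to 1.10% of the LDHA count and PGAM1 pseudogenes 0.33% to 1.26% of the PGAM1 count. The other members' pseudogenes carried less than 0.3%. TPI1P1 and LDHAP4 were higher in the RBM17 knockdown by 0.99 and 0.91 (adjusted p = 7.40e-11 and 1.23e-08), values near those of TPI1 and LDHA. TPI1P2 was higher in the CHERP knockdown by 1.04 (adjusted p = 2.82e-07), where TPI1 was not called. PGAM4, an intronless copy of PGAM1 that lies inside PGK1 on the opposite strand, rose by 0.83 ± 0.096 in the RBM17 knockdown (adjusted p = 8.87e-08), from 3.33 to 5.93 CPM, so its counts are uncertain. ATP7A overlaps PGK1 on the same strand and had 7.65% of its count. Counts per gene cannot separate the M1 and M2 forms of PKM, which differ by 1 exon.

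Enzymes that set the pace of glycolysis without belonging to it were read from a list of 12 flux regulators, of which 8 were higher and 2 lower in the RBM17 knockdown (median 0.35), 5 and 2 in the U2SURP knockdown (0.08) and 5 and 3 in the CHERP knockdown (0.10). PFKFB4, which sets fructose-2,6-bisphosphate, an activator of phosphofructokinase, measured 14.9, 15.1 and 15.1 CPM in control, 22, 22.1 and 26.2 in the RBM17 knockdown, 8.87, 9.20 and 9.97 in the U2SURP knockdown and 10.2, 12.4 and 12.1 in the CHERP knockdown. No knockdown library overlapped control, and the direction was up in the first and down in the others (0.64, -0.69 and -0.38, adjusted p = 1.44e-07, 1.66e-07 and 2.34e-04). PFKFB3, of the same family, rose by 0.40 ± 0.049 in the RBM17 knockdown (adjusted p = 2.03e-07). PDK3, a kinase that inhibits pyruvate dehydrogenase, rose by 0.90 ± 0.060 (adjusted p = 1.89e-11) and TIGAR, a fructose-2,6-bisphosphatase, by 0.76 ± 0.074 (adjusted p = 6.60e-09) in the RBM17 knockdown. TIGAR also lay above control (11.6 to 13.8 CPM) in the U2SURP (14.8 to 15.4) and CHERP knockdowns (16.4 to 19.2). PDK3 lay above control (11.7 to 13.0 CPM) in the CHERP knockdown (14.3 to 14.6) and overlapped it in the U2SURP knockdown (12.7 to 13.6). PDP1, the phosphatase that reactivates pyruvate dehydrogenase, rose by 0.42 in the U2SURP and 0.43 in the CHERP knockdown (adjusted p = 5.47e-06 and 2.41e-06).

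Transporters move glucose in and lactate out of the cell. Of 11 transport genes, 1 was higher and 6 lower in the RBM17 knockdown (median -0.31), 1 and 7 in the U2SURP knockdown (-0.58) and 2 and 7 in the CHERP knockdown (-0.45). SLC2A1, the main glucose transporter GLUT1, measured 95.2, 91.4 and 96.0 CPM in control, 80.7, 82.8 and 99.9 in the RBM17 knockdown, 47.1, 46.4 and 49.0 in the U2SURP knockdown and 45.2, 45.6 and 50.5 in the CHERP knockdown. The RBM17 knockdown overlapped control (-0.10, adjusted p = 0.195), but was called lower without its library 3 (-0.20, adjusted p = 0.00695) and among protein-coding genes alone (-0.17, adjusted p = 0.0309), while the others lay far below it (-0.99 ± 0.066 and -1.0 ± 0.066, adjusted p = 6.82e-11 and 1.78e-11). SLC16A1, the lactate transporter MCT1, was lower in all 3 (-0.27, -0.76 and -0.69, adjusted p = 8.91e-04, 1.92e-09 and 3.53e-09). BSG, the chaperone that brings lactate transporters to the membrane, rose by 0.26 in the RBM17 knockdown and was lower in the U2SURP (-0.27) and CHERP knockdowns (-0.82; adjusted p = 4.94e-04, 3.92e-04 and 4.73e-11). SLC16A3, the export transporter MCT4, was low at 1.68 CPM in control, stood at -0.15 in the RBM17 knockdown (adjusted p = 0.192; -0.22 and 0.0458 among protein-coding genes alone) and rose by 1.14 and 1.77 in the U2SURP and CHERP knockdowns (adjusted p = 1.46e-09 and 4.44e-13).

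**Figure D4:**
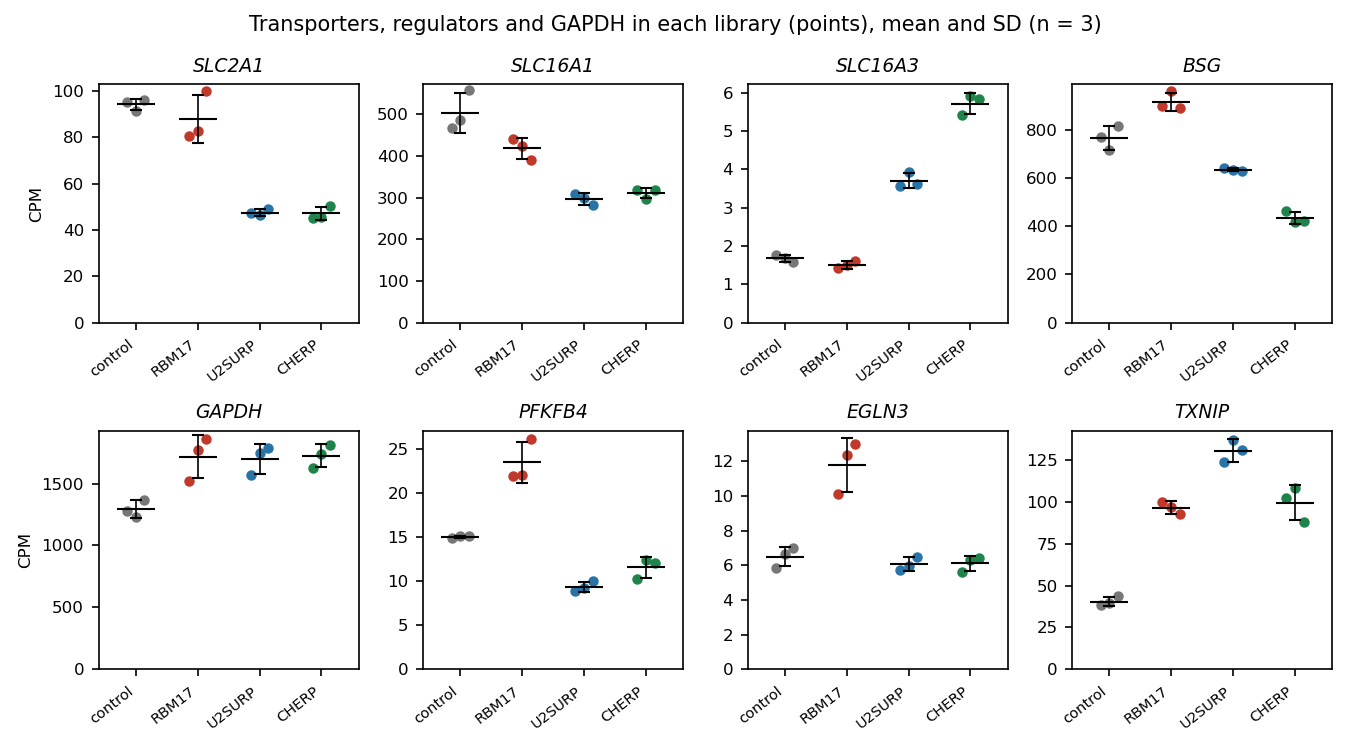
CPM (linear axes from 0) of 4 transport genes, GAPDH, PFKFB4, EGLN3 and TXNIP in each of 12 libraries; points are libraries, long bars the mean and whiskers the SD (n = 3). SLC2A1 is near 47 CPM in the U2SURP and CHERP knockdowns against 94.2 in control, GAPDH is alike in all knockdowns, and EGLN3 is raised in the RBM17 knockdown.

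Genes around the HIF, MYC and glucose-sensing transcription factors moved in mixed directions. The list of 19 holds the factors, their partners, inhibitors and targets, so its counts give no direction for the activity of the factors. In the RBM17 knockdown 9 were higher and 3 lower, in the U2SURP knockdown 5 and 5, and in the CHERP knockdown 5 and 8. HIF1A measured 61.7, 65.8 and 71.0 CPM in control and 98.7, 106.0 and 106.3 in the RBM17 knockdown, with no overlap, and rose by 0.65 ± 0.056 (adjusted p = 1.04e-09). It also rose by 0.22 in the U2SURP and 0.48 in the CHERP knockdown (adjusted p = 0.00273 and 1.68e-07). MYC passed the test in no knockdown (0.10, 0.04 and -0.02, adjusted p = 0.101, 0.606 and 0.723), although 7 of 19 alternatives called it higher in the RBM17 knockdown. TXNIP, a glucose-responsive inhibitor of glucose uptake, rose by 1.25, 1.69 and 1.30 in the RBM17, U2SURP and CHERP knockdowns (adjusted p = 6.55e-13, 3.51e-14 and 3.02e-13). MLXIPL, which encodes the glucose-sensing factor ChREBP, was lower in all 3 (-0.95, -0.42 and -0.74, adjusted p = 7.51e-10, 1.21e-04 and 5.28e-08).

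Hypoxia-response genes outside glycolysis were mixed as well. Of 20, 10 were higher and 5 lower in the RBM17 knockdown (median 0.10), 2 and 12 in the U2SURP knockdown (-0.29) and 3 and 10 in the CHERP knockdown (-0.20). EGLN3, an oxygen-sensing hydroxylase, rose by 0.86 ± 0.092 in the RBM17 knockdown (adjusted p = 2.76e-08), and FAM162A, a mitochondrial protein, by 0.58 ± 0.065 (adjusted p = 5.71e-08). NDRG1 was lower in all 3 (-0.37, -0.59 and -0.81, adjusted p = 3.69e-05, 1.34e-07 and 4.77e-10), as was PPFIA4 (-0.66, -1.05 and -1.56, adjusted p = 7.19e-06, 5.75e-08 and 1.72e-10). CA12, a carbonic anhydrase, rose by 0.44 in the RBM17 knockdown and was lower in the others (-0.68 and -0.65, adjusted p = 6.67e-06, 3.50e-08 and 3.79e-08). Direct comparison placed 15 of the 20 higher in the RBM17 than in the U2SURP knockdown and none lower, beside 23% of genes tested called higher and 21.5% lower.

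Pathways that draw on glycolysis were read in the same way. Of 26 genes of pyruvate dehydrogenase and the citric acid cycle, 21 were higher and 0 lower in the RBM17 knockdown (median 0.42), 15 and 1 in the U2SURP knockdown (0.20) and 17 and 4 in the CHERP knockdown (0.22). Over all genes tested, 25.4%, 21.1% and 22.8% were called higher in these knockdowns. Among genes at or above the level of PFKP the shares were 54.7%, 45.7% and 43.3%. SDHB, a succinate dehydrogenase subunit, rose by 0.81, 0.47 and 0.46 in the RBM17, U2SURP and CHERP knockdowns (adjusted p = 2.21e-11, 2.54e-07 and 2.75e-07), and FH, fumarase, by 0.81, 0.20 and 0.22 (adjusted p = 5.18e-11, 0.00814 and 0.00342). With GC content and length offsets FH lost its call in the U2SURP (0.10, adjusted p = 0.0797) and CHERP knockdowns (0.097, adjusted p = 0.0936), and in the U2SURP knockdown also without control library 1 (adjusted p = 0.0525). Of 15 genes of branches such as serine and hexosamine synthesis, 13 were higher and 1 lower in the RBM17 knockdown, 8 and 2 in the U2SURP knockdown and 7 and 1 in the CHERP knockdown. PSPH, the last enzyme of serine synthesis, rose by 0.91 ± 0.058 in the RBM17 knockdown (adjusted p = 9.02e-12), while PHGDH, its first, rose by 0.51, 0.66 and 0.75 in the RBM17, U2SURP and CHERP knockdowns (adjusted p = 1.15e-08, 9.83e-10 and 4.36e-11). All 13 mitochondrially encoded mRNAs were lower in each knockdown, opposite in sign to the nuclear list.

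**Figure D5:**
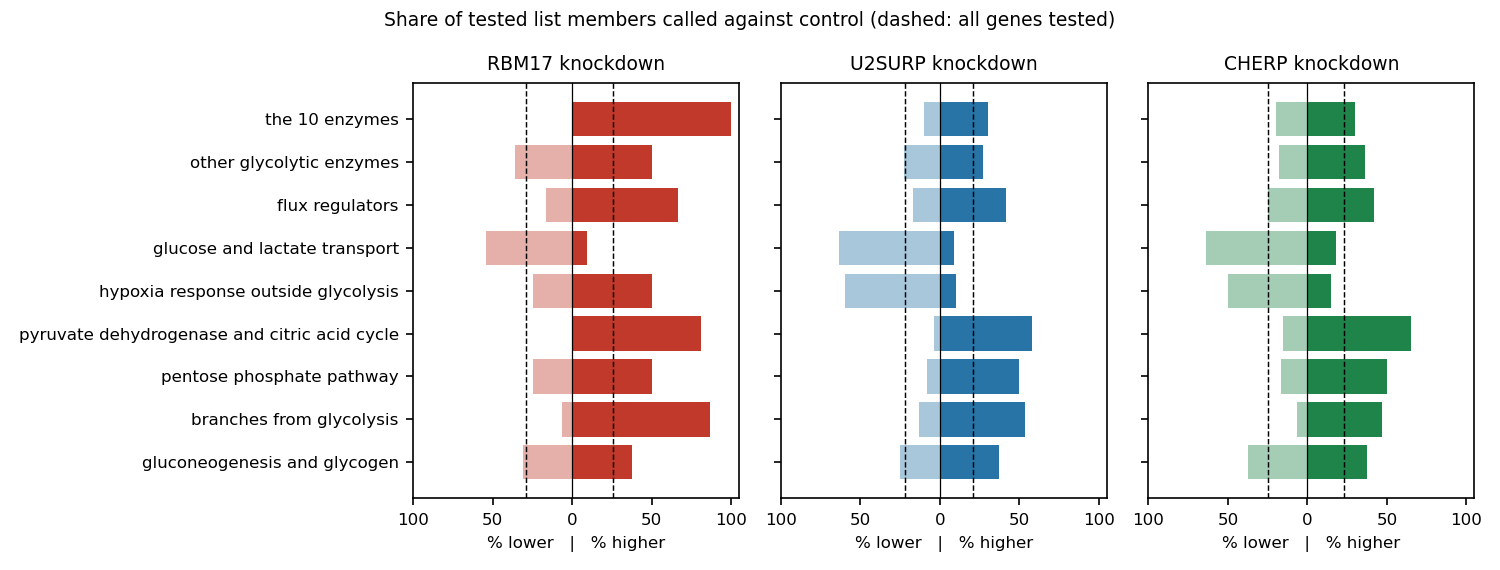
Percent of tested genes of each list called higher (right, solid) or lower (left, pale) in each knockdown against control; dashed lines give the same percentages over all 29003 genes tested. The 10 enzymes reach 100% higher in the RBM17 knockdown, and 30% in each of the others.

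Factors known to choose between the M1 and M2 exons of PKM also changed. Of 7, 4 were higher and 3 lower in the RBM17 knockdown, 3 and 2 in the U2SURP knockdown and 4 and 1 in the CHERP knockdown. PTBP1, a repressor of the M1 exon, rose from 481.0, 475.6 and 501.2 CPM to 669.4, 748.3 and 731.5 in the RBM17 knockdown, by 0.56 ± 0.052 (adjusted p = 3.03e-09). HNRNPA1, which acts with it, was lower in the RBM17 knockdown (-0.40 ± 0.071, adjusted p = 3.90e-05) and higher in the U2SURP and CHERP knockdowns (0.38 and 0.61, adjusted p = 1.13e-04 and 1.60e-07).

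The genes whose profile over the 12 libraries was most like the mean profile of the 10 enzymes, among 10920 protein-coding genes, were GATB (Pearson r = 0.991), IFT57 (0.991), DCTPP1 (0.989), AGK (0.989), EXOSC3 (0.987) and EGLN3 (0.986). The libraries share their groups and scaling, so these values describe a shared step between the RBM17 knockdown and the rest. The 6 genes were picked for this likeness in the same libraries. Their changes, p-values and order of libraries given below therefore follow from the choice and are a description only. GATB, a mitochondrial amidotransferase subunit, measured 26.8, 26.4 and 28.8 CPM in control and 39.6, 45.7 and 47.1 in the RBM17 knockdown, a rise of 0.69 ± 0.061 (adjusted p = 1.34e-09). EGLN3 measured 5.87, 6.64 and 7.0 CPM in control and 10.1, 12.4 and 13.0 in the RBM17 knockdown. In both, as for the 10 enzymes, RBM17 knockdown library 1 was the lowest of its group. The other 4 rose by 0.49 to 0.73 in the RBM17 knockdown, and none of the 6 was called in the U2SURP or CHERP knockdown.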

How the data were processed

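Gene-level read counts were deposited by the authors, 1 file for each of 12 poly(A) RNA-seq libraries from HEK293 cells; they are raw counts without normalization. The submitters' processing notes name HISAT2 2.0.5, SAMtools, HTSeq and GRCh38, with no roles. Annotation release and strand setting: not given in the sources used here. Counts were tested with edgeR 4.0.16 in R 4.3.3 (TMM scaling, filterByExpr leaving 29003 genes, robust quasi-likelihood fit of all 12 libraries, Benjamini-Hochberg adjustment over all genes, threshold 0.05). SE is the log2 fold change divided by the root of F, and 95% intervals are 1.96 SE. Names and exon lengths came from GENCODE 29, which named 56996 of 60554 identifiers. The test was checked on simulated counts. Alternatives were DESeq2 1.42.0 (size factors; Wald test), other filters, GC and length offsets and left-out libraries. Libraries of a group differed beyond sampling noise, so none was merged. Besides the 10 members, RBM17, U2SURP, CHERP, GAPDH and isozymes at 1 CPM or more were named. Up to 2 genes per list, direction and knockdown with the smallest adjusted p were picked. Not all of these are described, and PGM2, PGM1, ADPGK and PDK4 are among those left out. Pseudogenes at 1 CPM or more and the 6 most alike genes were named too. Values of named genes in other knockdowns, MYC, PFKFB3 and other values beside them were added after values were seen. Members and lists were chosen with earlier results of these data known.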

Additional observations from a re-analysis of the deposited data

How the results depend on the processing

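No paired analysis was possible because the labels give each library a number of its own that no other group shares, and replicate numbers here only name libraries in accession order. All 10 members stayed higher in the RBM17 knockdown than in control, the U2SURP knockdown and the CHERP knockdown under all 19 alternatives. Over the 6 comparisons the members gave 1140 alternative values: 1070 kept direction and side of the threshold, 32 lost and 16 gained the call, and 22 changed sign. The other named genes gave 3496 values: 3388 kept, 49 lost, 23 gained and 36 changed sign. The cause of each change was not tested.

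Against control in the U2SURP knockdown, members lower numbered 0 with DESeq2 size factors, with the DESeq2 Wald test, with GC content and length offsets and with RBM17 knockdown library 2 and control library 3 both left out, against 1 in the main analysis, and 0 to 2 when leaving out 1 library at a time. Members higher numbered 1 to 4 when leaving out 1 library, against 3. In the CHERP knockdown, members lower numbered 1 with GC content and length offsets and 3 without the filter on low counts, against 2. They numbered 1 to 2 when leaving out 1 library. Members higher in the CHERP knockdown numbered 0 to 4 when leaving out 1 library, against 3. Between the U2SURP and CHERP knockdowns, with only the 2 groups compared, 2 members were higher and 2 lower, against 1 and 1. Members lower there numbered 2 for protein-coding genes alone and with GC content and length offsets, and 1 to 2 when leaving out 1 library. The enolase share difference in the CHERP knockdown, 0.0301 points, was -0.064 without CHERP knockdown library 3 and -0.106 without control library 1.

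Sign changes of members, all of values near 0 and not called, were these on the log2 scale. In the U2SURP knockdown against control, PKM was 0.015 with DESeq2 size factors, the DESeq2 Wald test, without control library 3 and with both libraries left out, and 0.061 with GC and length offsets; LDHA was 0.013 with both DESeq2 settings, 0.034 without U2SURP knockdown library 1 and 0.028 in both settings without control library 3. In the CHERP knockdown ENO1 was 0.010 with GC and length offsets and without CHERP knockdown library 1, and 0.011 in both settings without control library 3. Between U2SURP and CHERP knockdowns, PFKP was -0.002 and -0.009 without U2SURP knockdown library 3 or CHERP knockdown library 1, ALDOA 0.003 with both DESeq2 settings and 0.059, 0.033 and 0.015 without U2SURP knockdown library 1 or CHERP knockdown library 2 or 3, and ENO1 0.016 without U2SURP knockdown library 1.

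Among other genes, PFKM was -0.019 in the RBM17 knockdown for protein-coding genes alone, and in the CHERP knockdown 0.006 with both DESeq2 settings, 0.025 with GC and length offsets and 0.001 without CHERP knockdown library 1. SLC16A3 was 0.041 in the RBM17 knockdown with GC and length offsets. CHERP in the U2SURP knockdown changed sign to 0.001 with both DESeq2 settings and to 0.114 with GC and length offsets. In the latter setting CHERP was called higher (edgeR adjusted p = 0.0499). HK1 in the CHERP knockdown was -0.029 without U2SURP knockdown library 1 or control library 2, -0.026 without CHERP knockdown library 1 and -0.006 without its library 3. FAM162A there was -0.086 with GC and length offsets and -0.001 without library 3, and MYC 0.009 with GC and length offsets and 0.005 in both settings without control library 3. GAPDH between the RBM17 and U2SURP knockdowns was -0.046 for protein-coding genes alone, -0.033 with GC and length offsets, -0.008 without RBM17 knockdown library 2 (alone or with control library 3), -0.045 without its library 3 and -0.002 without U2SURP knockdown library 1. Between the RBM17 and CHERP knockdowns it was 0.025 with both DESeq2 settings, 0.002 with only the 2 groups compared, and 0.074, 0.045 and 0.083 without RBM17 knockdown library 1, U2SURP knockdown library 1 or CHERP knockdown library 3. Between the U2SURP and CHERP knockdowns GAPDH was 0.047 without U2SURP knockdown library 1 and 0.027 without CHERP knockdown library 3, and SLC2A1 -0.009 for protein-coding genes alone, -0.012 without U2SURP knockdown library 3, -0.017 without CHERP knockdown library 1 and -0.013 without its library 2. Leaving out 1 library at a time gave the following log2 ranges. In the U2SURP knockdown, PKM ranged from -0.044 to 0.015 and LDHA from -0.060 to 0.034. In the CHERP knockdown, ENO1 ranged from -0.082 to 0.011, HK1 from -0.029 to 0.030, PFKM from -0.054 to 0.001, FAM162A from -0.001 to 0.124 and MYC from -0.054 to 0.005. GAPDH ranged from -0.045 to 0.095 between the RBM17 and U2SURP knockdowns and from -0.066 to 0.083 between the RBM17 and CHERP knockdowns. Between the U2SURP and CHERP knockdowns, PFKP ranged from -0.009 to 0.092, ALDOA from -0.044 to 0.059, ENO1 from -0.076 to 0.016 and GAPDH from -0.061 to 0.047. The enolase share difference ranged from -0.106 to 0.186 points.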

Other observations

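Genes that store glucose or return it to the blood moved in both directions. Of 17 genes of gluconeogenesis and glycogen, 16 were tested; 6 were higher and 5 lower in the RBM17 knockdown (median log2 fold change 0.03), 6 and 4 in the U2SURP knockdown (-0.02) and 6 and 6 in the CHERP knockdown (-0.11). PYGB, the brain form of glycogen phosphorylase, rose by 0.74 ± 0.049 in the RBM17 knockdown (edgeR adjusted p = 1.30e-11), and PYGL, the liver form, by 0.77 ± 0.060 (adjusted p = 2.07e-10). SLC37A4, the glucose-6-phosphate transporter of the endoplasmic reticulum, was lower in all 3 knockdowns, at -0.55 in the RBM17, -0.91 in the U2SURP and -1.23 in the CHERP knockdown (adjusted p = 1.40e-08, 3.20e-11 and 6.86e-14). GYG1, which primes glycogen, rose by 0.54 in the U2SURP and 0.98 in the CHERP knockdown (adjusted p = 7.43e-07 and 4.59e-11).

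The pentose phosphate pathway, which branches off after HK2, had 12 genes tested, of which 6 were higher and 3 lower in the RBM17 knockdown (median 0.24), 6 and 1 in the U2SURP knockdown (0.21) and 6 and 2 in the CHERP knockdown (0.20). PRPS1, which makes phosphoribosyl pyrophosphate, rose by 0.83 ± 0.067 in the RBM17 knockdown (adjusted p = 3.07e-10). PGD, the second dehydrogenase of the pathway, was lower in the RBM17 (-0.38 ± 0.057, adjusted p = 5.10e-06) and U2SURP knockdowns (-0.90 ± 0.058, adjusted p = 4.41e-11) and not called in the CHERP knockdown (0.10, adjusted p = 0.154). TKTL1, a transketolase-like gene under 2 CPM in every group mean, rose by 1.78 in the U2SURP and 2.00 in the CHERP knockdown (adjusted p = 2.71e-08 and 2.10e-09).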
